A study of Mus musculus with 4 samples.

Results

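The 9 genes described here, Tnfrsf4, Tnfrsf9, Tnfrsf18, Tnfrsf1b, Tnfrsf25, Cd27, Cd40lg, Tnfsf8 and Tnfsf11, encode costimulatory receptors and ligands of the TNF superfamily. They were chosen by symbol, and all 9 were found among the 13265 genes of the deposited single-cell expression table. YFP+CD4+ T cells had been isolated from small intestines of C57BL/6 mice aged 7 to 8 months that carried Il17a-cre and Rosa26-stop-yfp, in which YFP marks cells that have at some time expressed Il17a, whether or not they still did so when sorted. TGFβR-KO mice carried floxed alleles of Tgfbr2, so that Cre removes the receptor from those cells. TGFβR-CA mice carried a constitutively active form of Tgfbr1 behind a floxed stop, and TGFβR-WT littermates carried neither allele. Cre and the reporter were thus shared by all 3 conditions. Cells came from pools of mice, with 1 sample of TGFβR-KO, 1 of TGFβR-CA and 2 of TGFβR-WT.

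Of 5080 cells, 2975 were TGFβR-KO, 1098 TGFβR-CA and 1007 TGFβR-WT. Barcode suffixes split the TGFβR-WT cells into 709 (the larger set) and 298 (the smaller set), and nothing in the sources used here ties a set to a sample or a sequencing batch. By the study's methods, TGFβR-KO and TGFβR-CA were processed in separate batches, each together with TGFβR-WT cells, so no within-batch value could be computed. The median number of corrected UMIs per cell was between 3440 and 3984.5 in the 4 sets, since the values had already been adjusted for depth. All 6 markers of CD4 T cells were present in all 4 sets, whereas the summed level of the B cell markers was at most 0.271 per 10000 corrected UMIs in any set and that of the CD8 markers at most 0.0453. Plasma cell markers summed to 0.589 in TGFβR-KO, 0.659 in TGFβR-CA and 0.272 in TGFβR-WT, nearly all of it Jchain, in at most 3.28% of cells. Myeloid markers summed to between 1.85 and 2.18 in the 4 sets, nearly all of it Cst3, with Lyz2 at most at 0.0218 and Itgax at most at 0.00261. At least 1 of 6 TH17 markers was found in 79.9% of TGFβR-KO, 55.1% of TGFβR-CA and 67.8% of TGFβR-WT cells. Tgfbr2 stood at 1.48 per 10000 in TGFβR-KO, 1.78 in TGFβR-CA, 1.72 in the larger and 1.76 in the smaller TGFβR-WT set, and whether the deleted part lies within the counted reads is not given in the sources used here. Tgfbr1 was at 0.219, 0.792, 0.367 and 2.79 in the same order, so the smaller TGFβR-WT set lay above the cells labelled TGFβR-CA. The conditions are therefore named by their labels, and genes were counted as higher or lower against each TGFβR-WT set, while medians, ratios at equal cluster shares and some shares of cells use the pooled TGFβR-WT cells. The larger TGFβR-WT set had 14 barcodes in common with TGFβR-KO, and other pairs of sets at most 1.

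TNF superfamily ligands are mostly trimeric membrane proteins that cluster their receptors on a partner cell. Costimulatory receptors of the family have no enzymatic activity and recruit TRAF adaptors, through which they feed the NF-κB pathways and help activated T cells to divide, survive and keep their effector functions. In the intestine, OX40, 4-1BB, GITR, TNFR2, DR3 and CD27 are receptors that T cells use in this way, whereas CD40 ligand, CD30 ligand and RANKL are displayed by T cells toward B cells, dendritic cells and other partners.

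The level of a gene is given per 10000 corrected UMIs, after adding up all cells of a set, and its share is the percentage of cells with a value above 0. Shares carry 95% Clopper-Pearson intervals, which cover counting error only and neither mice nor libraries. Where no cell was above 0, the share that 3 counts would give is printed as the upper limit. TGFβR-KO and TGFβR-CA each had 1 sample, so no difference between conditions has a replicate check and no p-value is given. A gene with at least 200 corrected UMIs was counted as higher or lower in a condition when its level was at least 1.5 times above, or below, both TGFβR-WT sets. Both comparisons use the same TGFβR-WT cells.

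Over all cells, Cd27 was the only member to pass this rule in TGFβR-KO cells, where it was lower (the plot of levels over all cells). Of the 8 members with enough UMIs, 1 was counted as lower and 0 as higher in TGFβR-KO, against 5.45% and 2.76% of all 7467 genes tested. In TGFβR-CA, 0 of 8 members were counted as higher and 0 as lower, against 1.21% and 2.73% of 7465 genes. With so few members, 1 gene in 8 does not set the list apart from that background. The median log2 ratio to the pooled TGFβR-WT cells was 0.05 for the 8 members in TGFβR-KO and 0.27 in TGFβR-CA, beside -0.17 and -0.11 for all genes. The yardstick itself was uneven: the TGFβR-WT sets lay at least 1.5 times apart in 21.9% of all genes and in 1 of 8 members, Tnfrsf25.

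**Figure D1:**
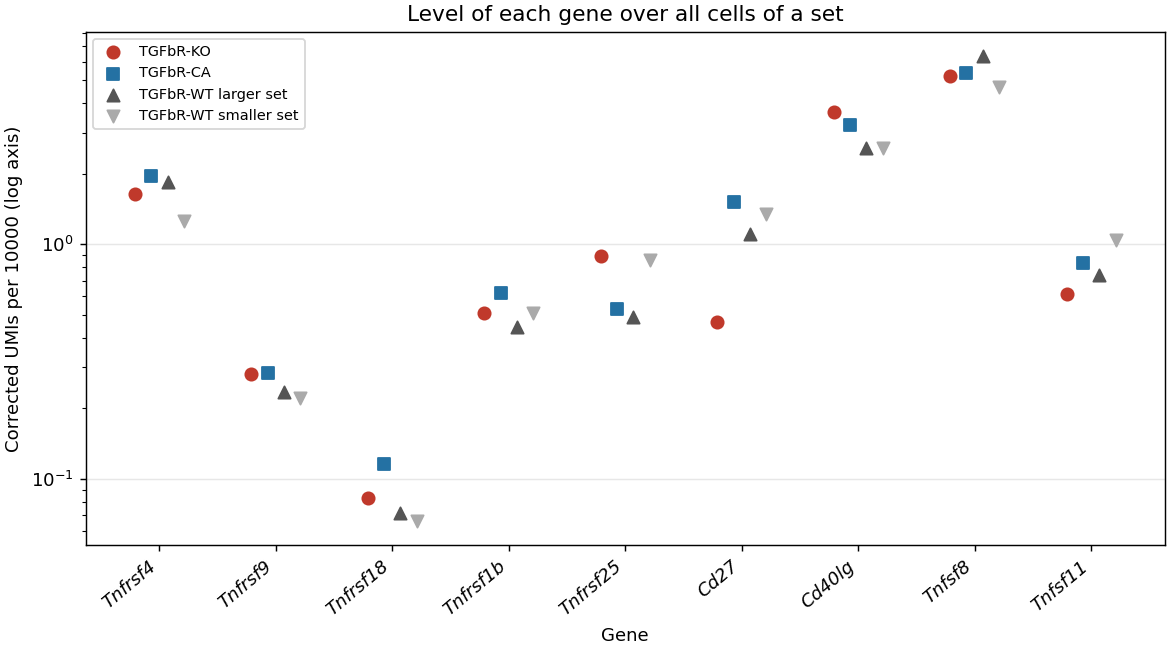
Level of each gene, in corrected UMIs per 10000 on a log axis, in TGFβR-KO, TGFβR-CA and each TGFβR-WT set, with 1 point per set and no error bars because each set is a single pool. Cd27 in TGFβR-KO, at 0.465, lies below both TGFβR-WT sets, and Tnfrsf25 is the gene whose TGFβR-WT points lie farthest apart.

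The deposited table gives each cell 1 of 8 cluster names, used here as they stand: Tumorigenic, CTL, GC-TFH, TR-TFH, Cycling, Migratory, Activated and Pre-tumorigenic. The cells were clustered on their own expression, members included, so the order of levels across clusters is a description. TGFβR-WT and TGFβR-CA held too few Tumorigenic cells (5 and 2) and CTL cells (13 and 3) for a level to be compared, and TGFβR-CA only 9 Cycling cells. TR-TFH cells were 17.4% of TGFβR-KO, 50.6% of TGFβR-CA and 45.7% of TGFβR-WT cells, and Migratory cells 27.9%, 4.74% and 8.84%. No cell type known to lack these genes was left among the cells, so the part of a level due to free RNA was not estimated.

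**Figure D2:**
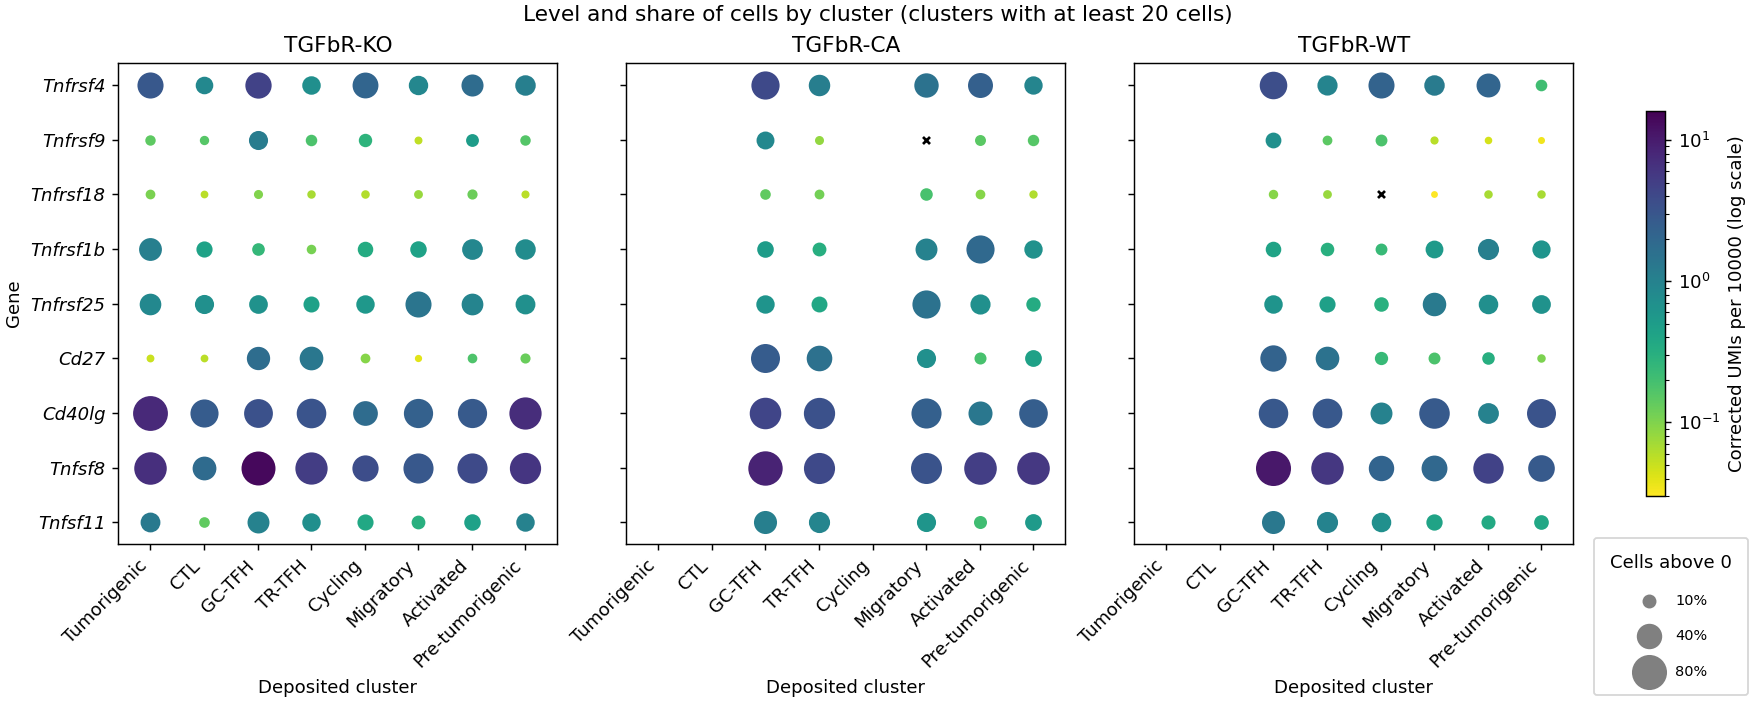
Each dot is a gene in a deposited cluster with at least 20 cells, shown for TGFβR-KO, TGFβR-CA and TGFβR-WT; its area follows the share of cells above 0 and its colour the level in corrected UMIs per 10000 on a log scale, and a cross marks a gene at 0. Cd27 is at 1.33 or more in both TFH clusters of TGFβR-KO and at most at 0.172 in the other 6, and Tnfsf8 has its highest level in GC-TFH cells of all 3 conditions.

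Tnfrsf4 (OX40), a receptor that T cells gain on activation, had its highest levels within TGFβR-KO in GC-TFH and Tumorigenic cells. Tnfrsf4 lies on chromosome 4 from 156013843 to 156016612 (+ strand, GRCm38), 9.55 kb from Tnfrsf18, with its neighbour on the same strand. Its level over all cells was 1.64 in TGFβR-KO, 1.96 in TGFβR-CA, 1.85 in the larger and 1.26 in the smaller TGFβR-WT set. The TGFβR-KO value thus lay between both TGFβR-WT sets. Within TGFβR-KO, Tnfrsf4 was at 4.67 in GC-TFH cells, 2.88 in Tumorigenic, 2.14 in Cycling and 1.77 in Activated cells, and at 0.716 in TR-TFH cells, the lowest. The share was 43.1% in GC-TFH (37.6 to 48.7) and 42.4% in Tumorigenic cells (37.2 to 47.7), and these intervals overlap. It was 24.8% (19.3 to 30.9) in Pre-tumorigenic and 19.7% (16.3 to 23.3) in TR-TFH cells, both below the Tumorigenic interval. GC-TFH cells also held the highest level in TGFβR-CA, at 3.98, and in TGFβR-WT, at 3.66.

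The promoter of Tnfrsf4 is printed because this gene had the largest ratio of any counted member inside a cluster, described further on. It is the 250 bases before the RefSeq start at chr4:156013445-156013694 (+ strand, GRCm38.p6), and capitals mark a match to the NFAT core TGGAAA, read on the opposite strand, which was found in 18.6% of 32851 promoter windows.
Tnfrsf4: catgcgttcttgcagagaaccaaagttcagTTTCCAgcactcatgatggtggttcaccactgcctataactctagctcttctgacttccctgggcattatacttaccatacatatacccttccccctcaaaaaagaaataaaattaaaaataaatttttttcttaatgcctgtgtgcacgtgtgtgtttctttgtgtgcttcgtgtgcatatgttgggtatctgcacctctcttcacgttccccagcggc

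Tnfrsf9 (4-1BB), an inducible receptor of recently stimulated T cells, was detected in all 8 clusters of TGFβR-KO, with most of its UMIs in few cells. The gene spans chromosome 4 from 150914562 to 150946102 (+ strand) and overlaps Camta1 on the other strand. Tnfrsf9 stood at 0.28 in TGFβR-KO, 0.283 in TGFβR-CA, 0.235 in the larger and 0.223 in the smaller TGFβR-WT set, a narrow range. Of its UMIs in TGFβR-KO, 44.5% came from the 30 cells with the most, and a single cell held up to 12. In TGFβR-KO it was above 0 in 21.1% of GC-TFH cells (16.7 to 26), at a level of 1.18, and in 2.05% of Migratory cells (1.2 to 3.26), at 0.0549. GC-TFH was the highest cluster in TGFβR-CA and TGFβR-WT as well, at 0.859 and 0.696. Activated cells came next in TGFβR-KO, at 0.507 in 8.18% of cells, where TGFβR-WT Activated cells had 2 UMIs in 117 cells and the smaller TGFβR-WT set had 0 in 29 cells, which allows a share of up to 10.3%.

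Both RefSeq starts of Tnfrsf9 have a window in the promoter table. The window at chr4:150927749-150927998 (+ strand, GRCm38.p6) is printed since it is the only member promoter with a match to the κB consensus, the site read by NF-κB, or to the AP-1 motif TGANTCA. Capitals mark, from left to right, the SMAD box CAGAC on the opposite strand, a run of overlapping κB matches that starts 43 bases before the start site, and the AP-1 motif 15 bases before it. The κB consensus was found in 3.9% and the AP-1 motif in 6.75% of all promoter windows, on either strand, and each in 1 of the 10 windows of the 8 members that matched the table.
Tnfrsf9: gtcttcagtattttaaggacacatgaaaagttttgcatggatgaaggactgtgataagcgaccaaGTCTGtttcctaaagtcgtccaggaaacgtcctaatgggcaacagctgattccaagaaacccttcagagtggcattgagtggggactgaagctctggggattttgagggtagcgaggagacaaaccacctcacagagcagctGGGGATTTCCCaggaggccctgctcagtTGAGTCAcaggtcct

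Tnfrsf18 (GITR), which is best known from regulatory T cells, was too sparse to compare. Located on chromosome 4, it runs from 156026164 to 156028895 (+ strand), overlaps Gm16008 on the other strand, and had 172 corrected UMIs in all cells, under the minimum of 200. Its level was 0.0828 in TGFβR-KO, 0.116 in TGFβR-CA, 0.0718 in the larger and 0.0659 in the smaller TGFβR-WT set. In TGFβR-KO its share ran from 1.87% in CTL to 4.4% in Activated cells, and all neighbouring intervals overlapped, so no order of clusters was detectable at this depth.

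Tnfrsf1b (TNFR2), a receptor for TNF on effector and regulatory T cells, was lowest in the TFH clusters of TGFβR-KO. Its locus is on chromosome 4 from 145213463 to 145246870 (- strand). Tnfrsf1b stood at 0.508 in TGFβR-KO, 0.621 in TGFβR-CA, 0.447 in the larger and 0.511 in the smaller TGFβR-WT set. TGFβR-KO lay between the TGFβR-WT sets, and TGFβR-CA above both by less than 1.5 times. In TGFβR-KO its level was 1.08 in Tumorigenic, 0.883 in Activated and 0.77 in Pre-tumorigenic cells, and 0.109 in TR-TFH cells. The share was 31.6% (26.8 to 36.6) in Tumorigenic against 3.66% (2.22 to 5.66) in TR-TFH cells. In TGFβR-CA the highest cluster was Activated, at 1.9 in 50% of 130 cells.

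Tnfrsf25 (DR3), the receptor for TL1A, had its highest level in Migratory cells of each condition. Chromosome 4 holds it from 152115934 to 152120119 (+ strand). Tnfrsf25 stood at 0.896 in TGFβR-KO, 0.532 in TGFβR-CA, 0.491 in the larger and 0.857 in the smaller TGFβR-WT set. TGFβR-KO was above both TGFβR-WT sets, yet only 1.05 times above the smaller, and TGFβR-CA lay between them. Migratory cells held the highest level in all 3 conditions, at 1.41 in TGFβR-KO, 1.49 in TGFβR-CA and 1.24 in TGFβR-WT. In TGFβR-KO 42.2% of Migratory cells were above 0 (38.9 to 45.7), beyond the interval of the next cluster, Activated, at 28.3% (23.4 to 33.6). Migratory cells contributed 44.8% of all Tnfrsf25 UMIs in TGFβR-KO.

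Cd27, which encodes the receptor for CD70 and is carried by naive and memory T cells until they are strongly differentiated, was found in TGFβR-KO mainly in the TFH clusters, where GC-TFH cells held 40.3% and TR-TFH cells 48.1% of its UMIs. It lies on chromosome 6 from 125232622 to 125237010 (- strand), where Mir8113 overlaps it on the same strand and Vamp1 on the other, so part of its reads could belong to a neighbour. Cd27 stood at 0.465 in TGFβR-KO, 1.51 in TGFβR-CA, 1.11 in the larger and 1.34 in the smaller TGFβR-WT set. TGFβR-KO was 2.38 times lower than the larger and 2.89 times lower than the smaller set, while TGFβR-CA was above both. Cells above 0 were 11.2% (10.1 to 12.4) of TGFβR-KO, 36.4% (33.6 to 39.4) of TGFβR-CA and 26.2% (23.5 to 29) of pooled TGFβR-WT cells. The TGFβR-KO interval lay below those of the larger set, at 24.1% (21 to 27.4), and the smaller set, at 31.2% (26 to 36.8), whereas the TGFβR-CA interval overlapped that of the smaller set. In TGFβR-KO, Cd27 was at 1.75 in GC-TFH and 1.33 in TR-TFH cells, and the next cluster, Activated, was at 0.172. Tumorigenic cells were at 0.0496, with 1.94% of cells above 0 (0.783 to 3.95). In Migratory cells Cd27 was above 0 in 1.44% (0.748 to 2.51) of TGFβR-KO, 21.2% (11.1 to 34.7) of TGFβR-CA and 6.74% (2.51 to 14.1) of pooled TGFβR-WT cells, and the last 2 intervals overlap. The smaller TGFβR-WT set, with 3 of 16 Migratory cells above 0, was at 18.8% (4.05 to 45.6), near TGFβR-CA.

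The promoter of Cd27, the member counted as lower in TGFβR-KO, is given for the 250 bases before its start at chr6:125237028-125237277 (- strand, GRCm38.p6). Capitals mark the SMAD box CAGAC, a short motif bound by proteins of the TGFβ pathway, read here on the opposite strand. It was found in 6 of 10 member windows and in 42.2% of all promoter windows, and so marks no member out. The T-box motif AGGTGTNA, found in 2.68% of all windows, occurred in 0 of the 10.
Cd27: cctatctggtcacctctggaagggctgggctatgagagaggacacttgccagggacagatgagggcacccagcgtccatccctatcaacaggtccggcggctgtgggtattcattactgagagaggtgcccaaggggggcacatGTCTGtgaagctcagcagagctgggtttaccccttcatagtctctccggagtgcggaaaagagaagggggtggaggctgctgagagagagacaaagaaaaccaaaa

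Most of the Cd27 difference went with the makeup of the clusters (the plot of ratios at equal cluster shares). When the levels of the 6 clusters with at least 20 cells in TGFβR-KO and TGFβR-WT were averaged with the TGFβR-WT shares, Cd27 was 1.2 times lower in TGFβR-KO than in the pooled TGFβR-WT cells, where all cells gave 2.54 times. In the same 6 clusters at each condition's own shares the ratio was 0.487, against 0.831 at TGFβR-WT shares. Within GC-TFH cells it was at 1.75 in TGFβR-KO and at 2.06 and 2.61 in the TGFβR-WT sets, and within TR-TFH cells at 1.33 against 1.4 and 1.66. Both are below both sets and short of 1.5 times. Outside the TFH clusters Cd27 had few UMIs: in Activated cells it was at 0.172 against 0.28 and 0.407, which is 1.63 and 2.37 times lower on 35 UMIs, too few for the rule. In Migratory cells it was at 0.0396 against 0.177 in the pooled TGFβR-WT cells, which had 6 UMIs. Tnfrsf25 moved in the same way, with a TGFβR-KO ratio of 1.47 over all cells and 1.11 at TGFβR-WT shares. The 6 clusters leave out Tumorigenic and CTL cells, which were nearly without Cd27 and, as given above, nearly absent from TGFβR-WT.

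Tnfrsf1b and Tnfrsf9 moved the other way. The Tnfrsf1b ratio of TGFβR-KO to TGFβR-WT was 1.09 over all cells. It was 0.916 in the same 6 clusters at each condition's own shares and 0.696 at TGFβR-WT shares. Its direction thus turned once Tumorigenic and CTL cells were left out, before the shares were made equal. The Tnfsf8 ratio was 0.901 over all cells, 0.922 in the 6 clusters at own shares and 1.13 at TGFβR-WT shares. For Tnfrsf4 these ratios were 0.991, 0.932 and 1.06. The Tnfrsf9 ratio was 1.21 over all cells and 1.8 at TGFβR-WT shares, where it was the only member to pass the 1.5 rule. For TGFβR-CA, whose cluster shares were closer to those of TGFβR-WT, the ratios of all 9 members kept their side of 1, and Cd27 went from 1.28 to 1.15 over 5 clusters.

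**Figure D3:**
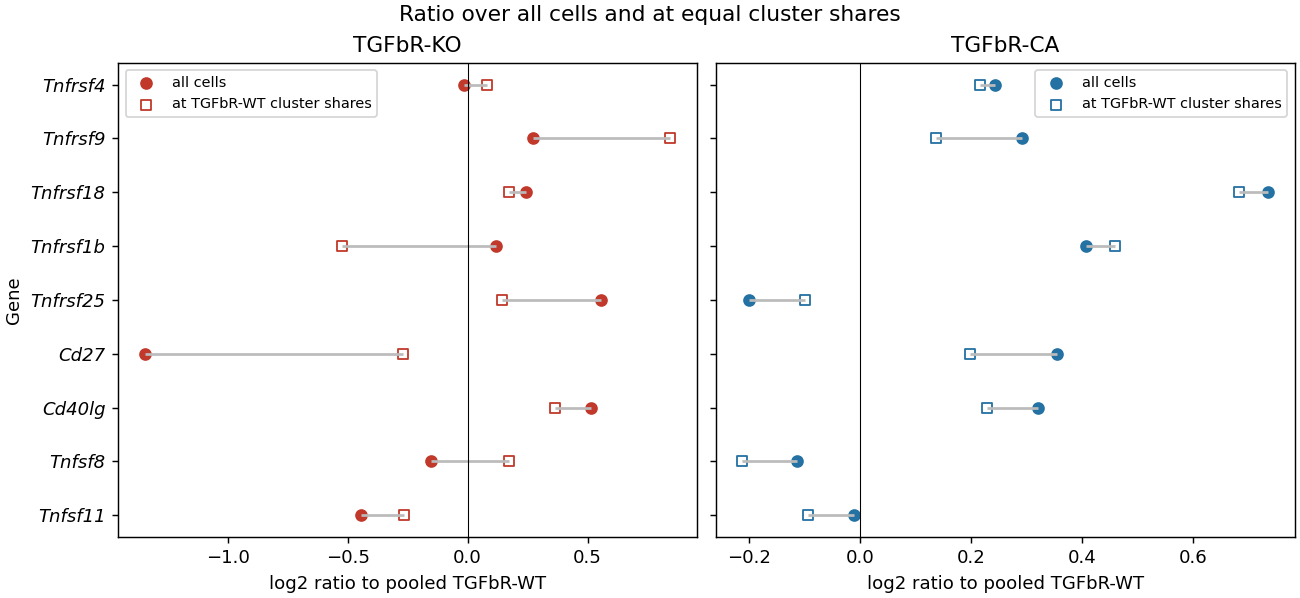
Log2 ratio of each gene to the pooled TGFβR-WT cells in TGFβR-KO and TGFβR-CA, over all cells (filled circles) and with cluster levels averaged at TGFβR-WT shares (open squares); the panels have different horizontal scales and no error bars. Cd27 in TGFβR-KO covers the longest distance, from a ratio of 0.393 to 0.831.

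Cd40lg (CD40 ligand), through which T cells help B cells and license dendritic cells, was the ligand most tied to Tumorigenic and Pre-tumorigenic cells of TGFβR-KO. Its position is chromosome X from 57212143 to 57224042 (+ strand). Cd40lg stood at 3.68 in TGFβR-KO, 3.22 in TGFβR-CA, 2.58 in the larger and 2.58 in the smaller TGFβR-WT set. TGFβR-KO and TGFβR-CA were both above these nearly equal sets, by 1.43 and 1.25 times, short of the rule. In TGFβR-KO its level was 7.68 in Tumorigenic and 7.28 in Pre-tumorigenic cells, and the next cluster, GC-TFH, was at 3.4. The share was 78.9% (74.4 to 83) of Tumorigenic and 67% (60.5 to 73) of Pre-tumorigenic cells, and the intervals do not overlap. In TGFβR-CA the highest cluster was GC-TFH, at 4.39. In TGFβR-WT it was Pre-tumorigenic, at 3.17, by the larger set alone, which was at 5.49 in 27 cells, 1 of which held 16 of 50 UMIs. In the smaller set Pre-tumorigenic cells were at 2.13, below TR-TFH cells at 3.25.

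Tnfsf8 (CD30 ligand), a membrane ligand of activated T cells, was found in more cells than any other member, with 62% of all cells above 0. This gene is on chromosome 4 from 63831308 to 63861347 (- strand). Tnfsf8 stood at 5.25 in TGFβR-KO, 5.39 in TGFβR-CA, 6.39 in the larger and 4.67 in the smaller TGFβR-WT set, so both conditions lay between the TGFβR-WT sets. GC-TFH cells held the highest level in all 3 conditions, at 14.1 in TGFβR-KO, 8.85 in TGFβR-CA and 10.6 in TGFβR-WT. In TGFβR-KO the lowest was CTL, at 1.83, with 34.6% of cells above 0 (29.4 to 40.1) against 74.8% (69.7 to 79.5) of GC-TFH cells. Its receptor CD30, from Tnfrsf8, had only 61 corrected UMIs in all cells.

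Tnfsf11 (RANKL), the ligand of RANK on dendritic and epithelial cells and on osteoclast precursors, had its highest level in GC-TFH cells of TGFβR-WT and TGFβR-CA and in Tumorigenic cells of TGFβR-KO. It lies on chromosome 14 from 78277445 to 78308043 (- strand). Tnfsf11 stood at 0.617 in TGFβR-KO, 0.833 in TGFβR-CA, 0.738 in the larger and 1.05 in the smaller TGFβR-WT set. TGFβR-KO was below both TGFβR-WT sets, by 1.2 and 1.7 times, and TGFβR-CA between them. In TGFβR-KO its level was 1.27 in Tumorigenic, 0.988 in Pre-tumorigenic and 0.982 in GC-TFH cells, and 0.141 in CTL cells. The share there was highest in GC-TFH cells, at 28.9% (24 to 34.3). Tumorigenic cells were at 23% (18.7 to 27.7), and these intervals overlap. Of the Tnfsf11 UMIs in TGFβR-KO, 21.3% came from the 30 cells with the most. Tumorigenic cells of TGFβR-WT and TGFβR-CA were too few to compare. GC-TFH was the highest cluster in TGFβR-WT, at 1.29, and in TGFβR-CA, at 1.09. CTL cells were thus the lowest cluster of TGFβR-KO for both Tnfsf8 and Tnfsf11.

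Conditions could be compared inside the 4 clusters with at least 20 cells in each TGFβR-WT set, for genes with at least 50 corrected UMIs in the cells compared (the plot of ratios within clusters). The largest ratio of a counted member was in Pre-tumorigenic cells. There Tnfrsf4 stood at 1.09 in TGFβR-KO, at 0.22 in the larger and at 0.198 in the smaller TGFβR-WT set, which makes it 4.97 and 5.51 times higher. The TGFβR-WT values rest on 6 UMIs in 79 cells, with 6.33% above 0 (2.09 to 14.2) against 24.8% (19.3 to 30.9) of 230 TGFβR-KO cells. Set by set, the share was 7.41% (0.91 to 24.3) in the larger set, which overlaps TGFβR-KO, and 5.77% (1.21 to 15.9) in the smaller, which does not. Tnfsf8 was also counted as higher, at 6.1 against 3.95 and 2.28, the first of these a ratio of 1.54; without cells that held a marker of another cell type other than Cst3, it no longer passed. These are 2 of 6 members tested, beside 13.6% of 3110 genes. Cd40lg, at 7.28 against 5.49 and 2.13, and Tnfsf11, at 0.988 against 0.769 and 0.198, were above both sets and did not pass.

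In Pre-tumorigenic cells of TGFβR-CA, 0 of 2 members tested were counted, beside 10% of 1805 genes. Tnfsf8 was at 5.77 there, 1.46 times the larger TGFβR-WT set. Tnfrsf4 had 35 UMIs in the cells compared, too few for the rule. It stood at 0.909, which was 4.14 and 4.59 times the larger and smaller TGFβR-WT sets. Tnfrsf4 was thus above both TGFβR-WT sets in TGFβR-CA as well as in TGFβR-KO. The larger TGFβR-WT set had only 27 Pre-tumorigenic cells and the smaller 52, or 3.81% and 17.4% of their cells, so this cluster carries the least certain TGFβR-WT levels.

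In Activated cells, Cd40lg was at 2.79 in TGFβR-KO against 1.18 and 0.57 in the TGFβR-WT sets, 2.36 and 4.89 times higher. It was above 0 in 54.1% of TGFβR-KO cells (48.4 to 59.7) and in 27.3% (18.3 to 37.8) of the larger and 20.7% (7.99 to 39.7) of the smaller TGFβR-WT set, both intervals below that of TGFβR-KO. This was 1 of 6 members tested, beside 10.1% of 4718 genes. In TGFβR-CA the counted member was Tnfrsf1b, at 1.9 against 1.09 and 1.14, which was 1 of 5 members tested, beside 6.56% of 3370 genes. Cd40lg was at 1.31 in the Activated cells of TGFβR-CA, above both sets and short of 1.5 times the larger. Tnfrsf1b in TGFβR-KO, at 0.883, was below both.

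In TR-TFH cells of TGFβR-KO, Tnfrsf1b was lower, at 0.109 against 0.294 and 0.318, or 2.7 and 2.92 times lower. Its share was 3.66% (2.22 to 5.66) against 8.26% (5.51 to 11.8) in the larger set, where the intervals overlap slightly, and 12% (7.04 to 18.8) in the smaller, where they do not. This was 1 of 8 members tested, beside 8.84% of 6586 genes. In TGFβR-CA, 0 of 7 members were counted in TR-TFH cells, beside 5.2% of 6843 genes, and Tnfrsf1b was at 0.316. In GC-TFH cells, 0 of 8 members were counted in TGFβR-KO, beside 6.49% of 5257 genes, and 0 of 8 in TGFβR-CA, beside 5.64% of 5089 genes. Cd40lg came nearest in GC-TFH cells of TGFβR-CA, at 4.39, which was 1.49 and 1.58 times above the TGFβR-WT sets.

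**Figure D4:**
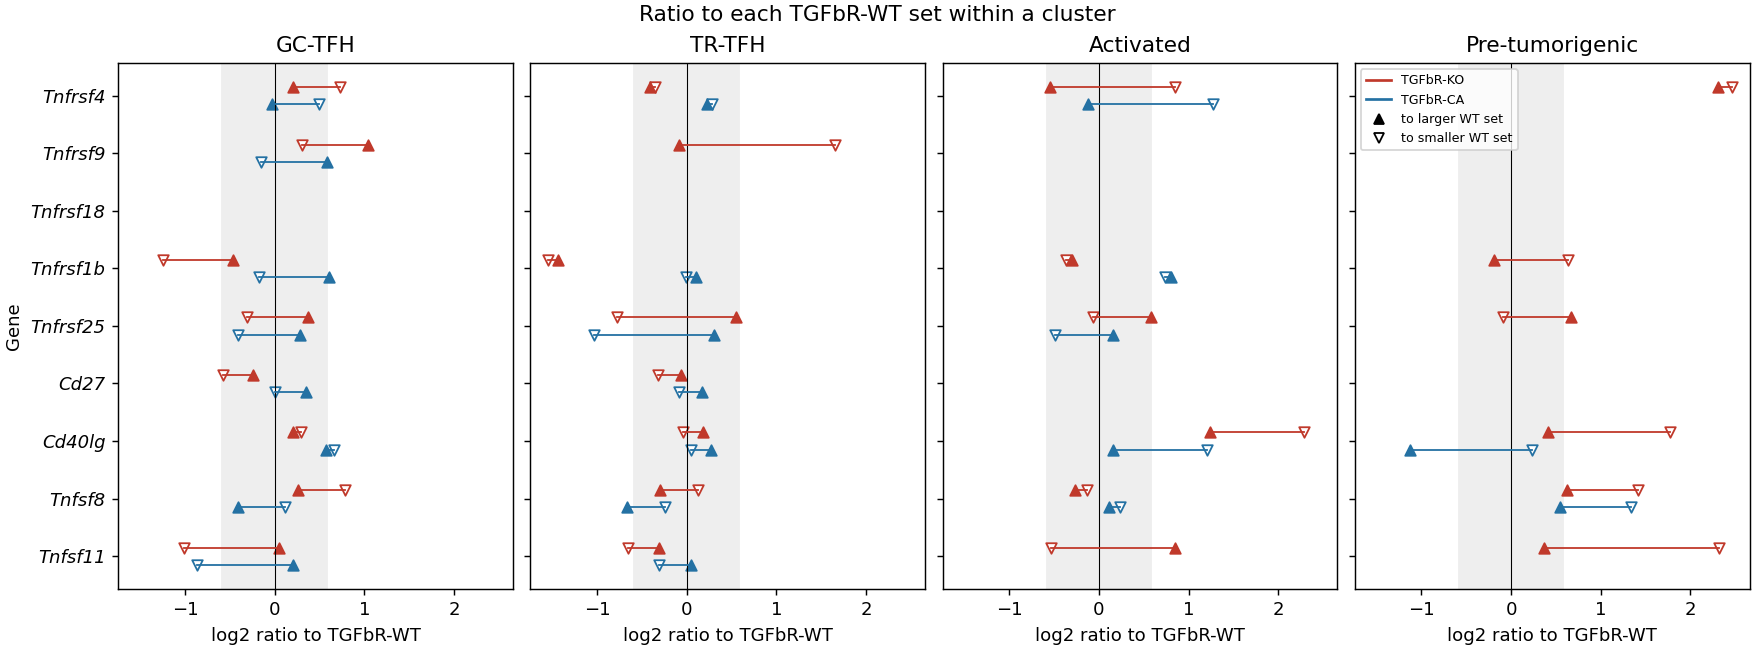
Log2 ratio of TGFβR-KO (red) and TGFβR-CA (blue) to the larger (filled triangle) and smaller (open triangle) TGFβR-WT set within GC-TFH, TR-TFH, Activated and Pre-tumorigenic cells, for genes that could be compared; the grey band is a ratio under 1.5 in either direction. A gene was counted where both triangles lie outside the band on the same side, as for Tnfrsf4 and Tnfsf8 in Pre-tumorigenic, Cd40lg in Activated and Tnfrsf1b in TR-TFH cells of TGFβR-KO.

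The members also differed by whether a cell held Foxp3, the regulator that defines regulatory T cells (the plot of shares by detection of Foxp3). Foxp3 was above 0 in 31 TGFβR-KO and 21 TGFβR-WT cells and in 0 of 1098 TGFβR-CA cells, which allows a share of up to 0.273%. Ikzf2 and Il2ra were also listed as markers of regulatory T cells. Ikzf2 was above 0 in 58.7% of TGFβR-CA, 49.2% of TGFβR-WT and 24.9% of TGFβR-KO cells. Il2ra was above 0 in 5.74%, 8.44% and 12.6% in the same order. Cells are grouped here by Foxp3 alone. In TGFβR-KO, Tnfrsf9 was above 0 in 41.9% (24.5 to 60.9) of Foxp3-detected cells and in 5.94% (5.12 to 6.86) of the rest. Tnfrsf4 was above 0 in 58.1% (39.1 to 75.5) against 27% (25.4 to 28.6), Tnfrsf1b in 51.6% (33.1 to 69.8) against 15.7% (14.4 to 17), and Cd27 in 58.1% (39.1 to 75.5) against 10.7% (9.61 to 11.9). These 4 receptors were thus more often detected in Foxp3-detected cells, with intervals apart. Of the other receptors, Tnfrsf18 was at 9.68% (2.04 to 25.8) against 2.89% (2.31 to 3.56) and Tnfrsf25 at 19.4% (7.45 to 37.5) against 27.5% (25.9 to 29.1), both with overlap. For the ligands Cd40lg and Tnfsf8 the order was reversed: Cd40lg was above 0 in 22.6% (9.59 to 41.1) against 57.7% (55.9 to 59.5), and Tnfsf8 in 25.8% (11.9 to 44.6) against 60.3% (58.5 to 62.1). Tnfsf11, at 16.1% against 16%, showed no such gap.

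In TGFβR-WT the ligands again lay apart, Cd40lg at 9.52% (1.17 to 30.4) of Foxp3-detected cells against 51.7% (48.6 to 54.9) of the rest and Tnfsf8 at 23.8% (8.22 to 47.2) against 64.2% (61.1 to 67.2). Of the receptors, all 4 had overlapping intervals there, among them Tnfrsf9 at 19% (5.45 to 41.9) against 5.07% (3.79 to 6.63). Of the 31 Foxp3-detected cells of TGFβR-KO, 15 were Activated and 10 TR-TFH. Without them, Tnfrsf9 in Activated cells of TGFβR-KO went from 0.507 to 0.18, whereas Tnfrsf9 in GC-TFH cells went from 1.18 to 1.14. The Tnfrsf9 level of GC-TFH cells was thus little changed without Foxp3-detected cells.

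**Figure D5:**
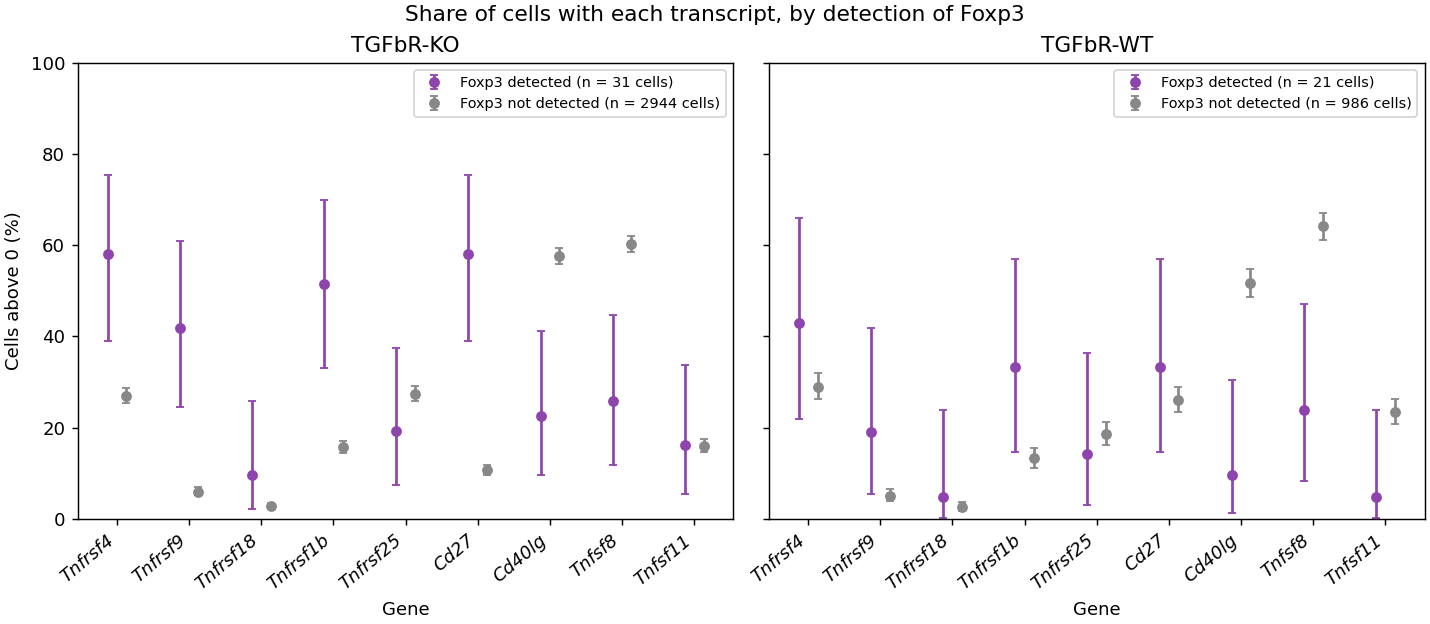
Share of cells above 0 for each gene, in percent with 95% Clopper-Pearson intervals, in cells with and without detected Foxp3, for TGFβR-KO (31 and 2944 cells) and TGFβR-WT (21 and 986 cells). Tnfrsf4, Tnfrsf9, Tnfrsf1b and Cd27 lie higher in Foxp3-detected cells of TGFβR-KO, Tnfrsf18 and Tnfrsf25 have overlapping intervals, and the ligands Cd40lg and Tnfsf8 lie lower in both conditions.

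Cells carried several members at once. At least 1 was above 0 in 91.6% of TGFβR-KO, 94.9% of TGFβR-CA and 93.7% of TGFβR-WT cells, and at least 3 in 39.9% (38.1 to 41.7), 52.3% (49.3 to 55.3) and 43.3% (40.2 to 46.4). The larger TGFβR-WT set, at 40.6% (37 to 44.3), overlapped TGFβR-KO, and the smaller, at 49.7% (43.8 to 55.5), overlapped TGFβR-CA. Among TGFβR-KO clusters, 58.2% of Tumorigenic cells and 55% of GC-TFH cells held 3 or more, against 19.9% (15.7 to 24.7) of CTL cells. Over all 5080 cells, with conditions and clusters mixed, Tnfrsf4 and Tnfrsf9 were found together in 158, where the product of their shares gives 93.4. Tnfrsf4 and Tnfrsf18, which had only 172 corrected UMIs, met in 74, where the product gives 46.7. Tnfrsf1b and Cd27 met in 91 cells, against 159 from the product. Within GC-TFH cells of TGFβR-KO, the first pair met in 41 cells where the product gives 28.9, and the last in 4 where it gives 8.25. These counts are a description of cells that share libraries and clusters.

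Across 18 groups of cells, each a cluster in a condition with at least 50 cells, the log2 levels of some members ran alike. Pearson's r was 0.74 for Tnfsf8 and Tnfsf11, 0.72 for Tnfrsf9 and Tnfsf8 and 0.67 for Tnfrsf4 and Tnfrsf9, and it was -0.46 for Tnfrsf1b and Cd27. The groups share libraries and were clustered on these genes. Among 7490 genes, the closest to Tnfrsf4 were Rilpl2 (r 0.9), Sec61a1 (0.87) and Batf (0.86), the last an AP-1 factor of activated T cells. The closest to Tnfrsf9 was Marcksl1 (0.89), to Tnfrsf1b Fam103a1 (0.88), to Tnfrsf25 Inf2 (0.83), to Cd40lg Dusp10 (0.81), to Tnfsf8 Sdhaf1 (0.91) and to Tnfsf11 mt-Co1 (0.85). Cd27 ran closest to Atp9a (0.96) and Ighm (0.95), the heavy chain gene of IgM. Ighm was above 0 in 30.5% of GC-TFH and 1.94% of Tumorigenic cells of TGFβR-KO, whereas any of 3 B cell markers was above 0 in 0.943% and 1.66%. Without cells that held a B cell marker, Cd27 in GC-TFH cells of TGFβR-KO was at 1.76.

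The counts in related gene lists are read beside the all-gene shares of 2.76% higher and 5.45% lower in TGFβR-KO and of 1.21% and 2.73% in TGFβR-CA. Of 22 other receptors of the TNF superfamily, 14 were in the table and 5 had enough UMIs: in TGFβR-KO 0 were counted as higher and 1 as lower, Tnfrsf13b (TACI), at 0.233 against 0.634 and 0.519, and in TGFβR-CA 0 were counted. Of 15 other ligands, 10 were in the table and 6 were tested, and 2 were higher in TGFβR-KO. Tnf was at 0.837 against 0.499 and 0.528, and Fasl, the ligand of the death receptor Fas, at 0.246 against 0.0559 and 0.0907. In TGFβR-CA, Tnf was the 1 ligand counted as lower, at 0.322. All 14 receptor adaptors, the TRAF genes among them, were tested, and 0 were counted in either condition. Of 7 genes for CD28-family and other costimulation, 1 was higher in TGFβR-KO, Cd226 (DNAM-1), at 1.45 against 0.59 and 0.495, and 1 lower, Icos, at 3.67 against 5.63 and 6.96, with 0 counted in TGFβR-CA. Of ligands for the receptors above, Tnfsf9 had 223 corrected UMIs in all cells, Tnfsf18 18 and Tnfsf4 1.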

How the data were processed

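Cells sorted from 4 samples were sequenced by droplet single-cell RNA-seq. The authors aligned the reads to mm10 with Cell Ranger 3.1.0, per the processing notes, and used Seurat to filter cells on detected genes and mitochondrial reads, apply SCTransform, integrate batches and cluster, removing γδ T and epithelial cells. The deposited values are natural log values of 1 plus SCTransform-corrected UMI counts, and the deposited table also names the cluster of each cell. How doublets were treated is not given in the sources used here, and no doublet caller was run.

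The log was undone with expm1, which gave whole numbers throughout (tolerance 1e-06, largest distance 3.64e-12). Since SCTransform had changed the counts, count models were not used. Levels are sums per 10000, the counting rule is the 1.5-fold rule of the report, and intervals are exact binomial at 95%. The counting rule was run on simulated counts drawn from the pooled profile of all cells, with counting error only. The simulated TGFβR-WT sets lacked the differences seen between the real sets. The run therefore does not show how the rule behaves with such differences. Likeness is Pearson's r of log2(level + 0.1). Gene positions are from GENCODE M21 and promoter sequences from RefSeq (GRCm38.p6); 8 of 9 members matched the promoter table. Python 3.11.15, numpy 2.4.6, scipy 1.17.1 and pandas 2.3.3 were used.

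Members and gene lists were chosen with earlier results of these data known. The text names every member, the 3 genes most like each where they help, and those genes of the other lists that passed the rule or pair with a member. Alternatives changed the cells, the scale, the filter, the cluster shares and the size of the ratio.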

Additional observations from a re-analysis of the deposited data

Results flagged for a closer look

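Cd27 over all cells was flagged because TGFβR-KO, at 0.465, lay below both TGFβR-WT sets and TGFβR-CA, at 1.51, above both. The difference between the 2 conditions was not tested, since each is 1 sample. The same held for Cd27 in GC-TFH cells, at 1.75 in TGFβR-KO and 2.61 in TGFβR-CA, where TGFβR-CA was only just above the smaller TGFβR-WT set, at 2.61.

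Tnfrsf1b in Activated cells was at 0.883 in TGFβR-KO and 1.9 in TGFβR-CA, on opposite sides of the TGFβR-WT sets. Tnfrsf4 in TR-TFH cells was at 0.716 and 1.11, and Tnfsf8 in Activated cells at 3.94 and 5.09, again on opposite sides; none of these differences was tested.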

How the results depend on the processing

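No paired analysis was possible because TGFβR-KO and TGFβR-CA each had 1 sample and the cells do not say which TGFβR-WT sample they came from. The count of members in TGFβR-KO stayed at 1 under all 11 other settings and went to 2 against either TGFβR-WT set alone, with Tnfrsf25 added by the larger and Tnfsf11 by the smaller set. The counted member was Cd27 except at TGFβR-WT cluster shares, where it was Tnfrsf9. In TGFβR-CA the count ran from 0 to 2 against single sets (Tnfrsf4 and Tnfrsf25 for the smaller) and became 1, Tnfrsf18, with no minimum of UMIs. Within the 4 clusters, counts added after seeing the data, TGFβR-KO had 4 member calls, from 8 to 15 against single sets, and TGFβR-CA 1, from 4 to 7. Leaving out cells with any marker of another cell type kept 2397 of 5080 cells, since Cst3 is found in many T cells, and gave 2 calls in TGFβR-KO and 0 in TGFβR-CA; with Cst3 set aside, the counts were 6 and 1, and Tnfsf8 in Pre-tumorigenic cells was no longer among them. A ratio of 2 left 0 calls in TGFβR-CA and no minimum of UMIs gave 2. The highest cluster of a member in TGFβR-KO was the same in 48 of 54 repeats. The number of UMIs limits Tnfrsf18, Tnfrsf9 outside GC-TFH cells and all members in Pre-tumorigenic TGFβR-WT cells.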
